A study of Mus musculus with 32 samples.

Results

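The comparison described here sets 5 neonatal oligodendrocyte progenitor cell (OPC) cultures that received dimethyl sulfoxide (DMSO), the solvent in which inhibitors are dissolved, against 3 neonatal cultures that were left untreated. These 8 libraries were chosen by their labels alone, out of 32 RNA sequencing libraries in the series, and every gene that passed a filter on low counts was tested. All 8 came from cortex of wild-type C57BL/6 mice at postnatal day 5, from cells selected with the O4 antibody and expanded as adherent cultures in a serum-free medium with forskolin, PDGF-AA and bFGF. The DMSO cultures had 0.02% DMSO for 48 h. The labels give no duration for the untreated cultures, so the solvent and any difference in time in culture cannot be told apart. The other libraries are neonatal cultures with lysine acetyltransferase inhibitors (KATi, garcinol with NU-9056) or the H4K20 methyltransferase inhibitor A-196 (SUV420i), and the same 4 conditions in adult cells.

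OPCs are the dividing, migratory glia from which myelinating oligodendrocytes arise. PDGF-AA acting on PDGFRA and bFGF acting on FGF receptors keep them cycling in culture, and withdrawal of these mitogens lets them leave the cell cycle and differentiate. They can also turn into cells with astrocyte features under serum or BMP signalling. O4 marks lipids at the surface of late progenitors and oligodendrocytes, and cultures selected with it can still hold a few astrocytes, microglia and vascular cells.

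Library totals ran from 24.7 to 29.6 M counts in the untreated and from 26.2 to 38.0 M in the DMSO libraries, and mitochondrial transcripts took 2.12% to 2.55% and 1.96% to 3.43% of counts. Each library carries a letter in its label, C, D or E for the untreated and A to E for the DMSO cultures, and the labels do not say what a letter stands for. Whether replicates were separate animals is not stated either. The p-values rest on a spread estimated over all 32 libraries in 8 groups. That spread reflects only how far cultures varied within their groups, which may be technical. The fit had no term for the letter and took all libraries as independent. Neonatal libraries that share a letter across treatments may not be, as described below for Sox10 and Gpr17. The RNA was bulk RNA, in which fewer cells of a type and less RNA per cell cannot be told apart.

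The cultures carried the defining genes of the oligodendrocyte lineage. Olig1, a transcription factor of the whole lineage, was measured at 2234, 2083 and 2085 counts per M counts of its library (CPM) in untreated C, D and E. It stood at 2375, 2047, 2026, 1878 and 2331 CPM in DMSO A to E. Olig2, its partner factor, lay between 939 and 1063 CPM untreated and between 1018 and 1293 CPM with DMSO. Sox10, the factor that drives myelin gene transcription, split the DMSO libraries. It stood at 80.3 CPM in DMSO A and 48.8 CPM in DMSO B, against 572, 707 and 626 CPM in DMSO C, D and E. The untreated libraries held 502, 509 and 370 CPM. The libraries labelled A and B were also low with the inhibitors, at 74.8 and 43.3 CPM with KATi and 85.5 and 41.9 CPM with SUV420i, where letters C, D and E held at least 503 CPM. Gpr17, a receptor of committed progenitors, was measured at 402 CPM in DMSO A and 43.0 CPM in DMSO B, and at 844, 2314 and 1160 CPM in DMSO C, D and E. Among 20 genes of the OPC stage, 9 were lower in both of DMSO A and B than in all of DMSO C, D and E, and 3 were higher. No untreated library has the letter A or B, so most counts of gene lists below are also given with DMSO C, D and E alone. What sets letters A and B apart was not tested.

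**Figure D1:**
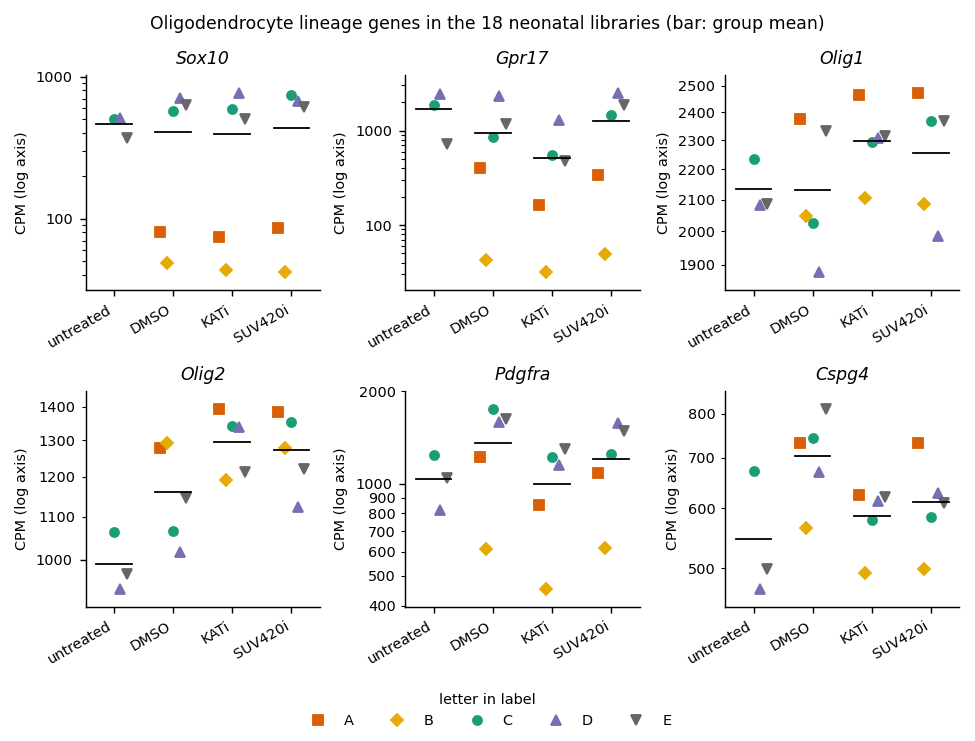
Level of 6 oligodendrocyte lineage genes in each of the 18 neonatal libraries, in CPM on a log axis, by treatment, with the letter of the label as colour and symbol and the group mean as a bar. Sox10 and Gpr17 are low in the libraries labelled A and B under each of the 3 treatments, while Olig1 shows no such gap between letters.

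Of 20259 genes tested, 2579 (12.7%) differed between DMSO and untreated cultures at an adjusted p under 0.05, 1288 of them (6.36%) higher and 1291 (6.37%) lower with DMSO. The genes that were lower moved further. Their median log2 fold change was -0.91, against 0.66 for those that were higher, and 157 fell by 4-fold or more where 49 rose that far. With a test against a 1.5-fold change, 180 genes (0.888%) were lower and 12 (0.0592%) higher. The libraries of both groups did not overlap for 4739 genes (23.4%), among them 2159 of those called. Upper-quartile scaling gave 933 higher and 1579 lower genes, so the near-equal split depends on the scaling.

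The counts depended on which libraries entered. With DMSO C, D and E alone, 1211 genes (6.54%) were called, 337 higher (1.82%) and 874 lower (4.72%), and 1057 of these were among the 2579. Without DMSO A the count was 1599. Without untreated D it was 329 (1.62%), with 51 higher (0.252%) and 278 lower (1.37%), of which 327 were among the 2579. Of the 2579 genes, 2577 kept their sign without untreated D, though they were picked by the contrast that includes it. Of 114 called genes drawn from the naming rule, 75 lost their call without untreated D and 41 with DMSO C, D and E alone.

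**Figure D2:**
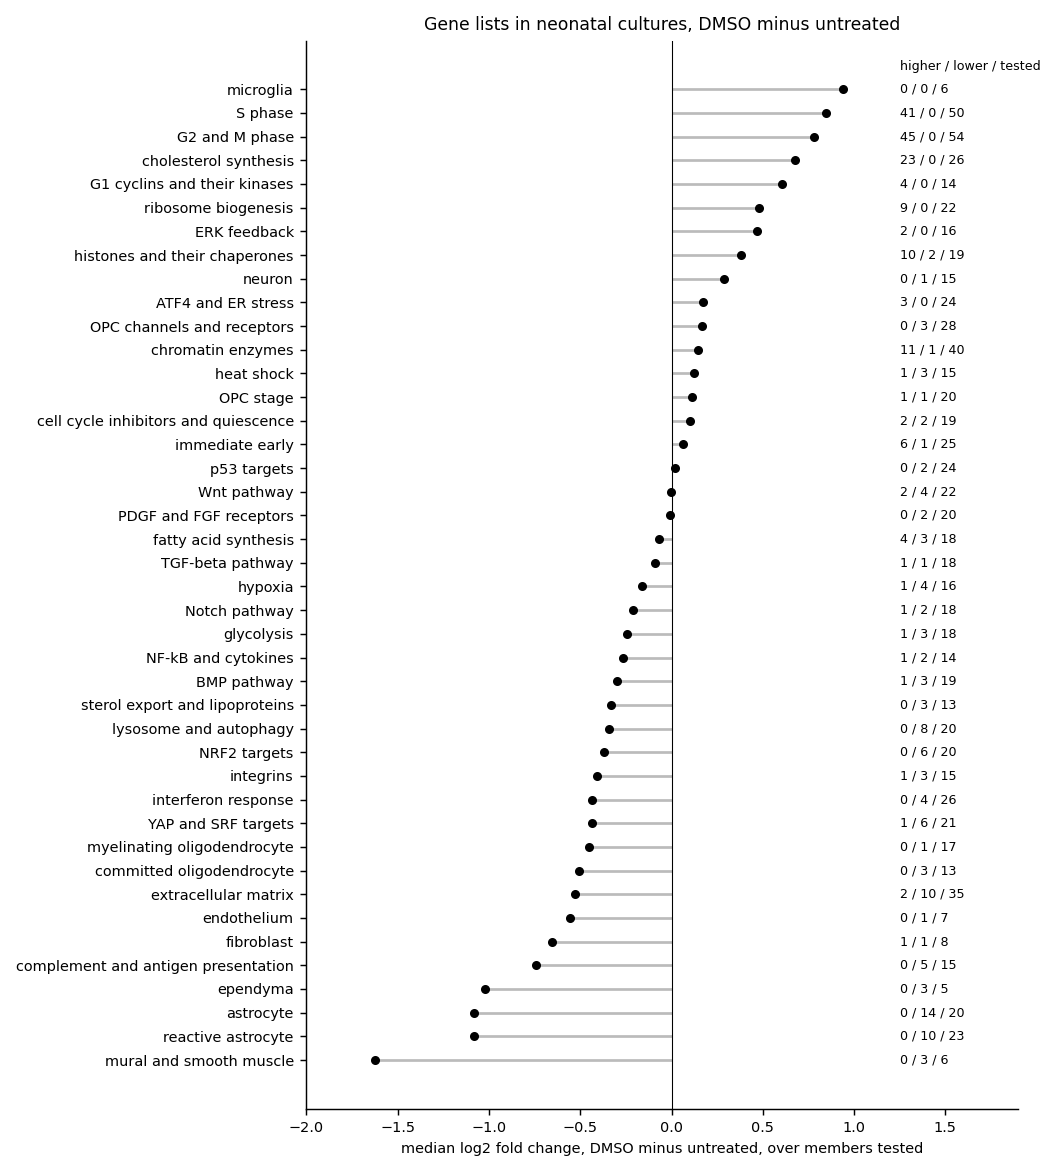
Median log2 fold change, DMSO minus untreated, of the tested members of each of 42 gene lists, with the number of members higher, lower and tested printed at the right. S phase, G2 and M phase and cholesterol synthesis have the highest medians among lists with called members, and mural and smooth muscle, reactive astrocyte and astrocyte genes the lowest.

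Genes of the cell division cycle were higher with DMSO. In the list of G2 and M phase genes, which act in spindle assembly and chromosome segregation, 45 of 54 rose and none fell, with a median log2 fold change of 0.78 against 0.04 over all genes tested. In the S phase list, which covers DNA replication, 41 of 50 rose and none fell, with a median of 0.85. The fold changes of all 54 and all 50 members were positive. The libraries of both groups did not overlap for 20 of the 54 and 13 of the 50, against 13.2% of all genes without overlap and higher. The summed S phase level overlapped, at 1680 to 3556 CPM untreated and 3356 to 5384 CPM with DMSO. That of the G2 and M phase list did not, at up to 7154 CPM untreated and at least 7286 CPM with DMSO. Mki67, which encodes the Ki-67 protein of dividing cells, had 225, 75.9 and 429 CPM in untreated C, D and E. With DMSO it had 1531, 1535, 1063, 683 and 641 CPM in A to E. The groups did not overlap, DMSO A and B were the highest, and untreated D was the lowest. The log2 fold change was 2.16 ± 0.49 (SE), with an adjusted p of 0.00567.

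The promoter of Mki67 is shown because it holds 2 kinds of element that G2 and M phase genes are known for, the CHR (TTTGAA), which the DREAM and MuvB complexes bind, and the CCAAT box (CCAAT), which NF-Y binds. That of Pole2, a subunit of DNA polymerase epsilon, is shown for an E2F site (TTTGGCGC or TTTCCCGC), the element of S phase genes. Both are RefSeq windows of GRCm38.p6 from 250 bases before to 50 bases after the gene's start, written 5′ to 3′ on the gene's strand, with each match on either strand in capitals. The Mki67 window is chr7:135716330-135716629 on the minus strand, and that of Pole2 is chr12:69228141-69228440 on the minus strand.
Mki67: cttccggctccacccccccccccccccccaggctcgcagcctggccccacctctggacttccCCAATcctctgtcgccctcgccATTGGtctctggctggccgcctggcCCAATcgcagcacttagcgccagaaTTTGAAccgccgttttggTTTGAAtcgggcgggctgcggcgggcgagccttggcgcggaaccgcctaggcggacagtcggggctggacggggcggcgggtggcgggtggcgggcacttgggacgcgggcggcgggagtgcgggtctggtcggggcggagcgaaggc
Pole2: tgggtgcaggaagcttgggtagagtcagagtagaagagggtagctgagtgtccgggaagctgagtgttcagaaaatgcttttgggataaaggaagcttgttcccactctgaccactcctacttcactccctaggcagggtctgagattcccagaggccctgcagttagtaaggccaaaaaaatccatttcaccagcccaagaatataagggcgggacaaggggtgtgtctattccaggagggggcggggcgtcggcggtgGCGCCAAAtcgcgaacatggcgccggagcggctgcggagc
The CHR letters were in 34 of 45 G2 and M phase genes with a window (75.6%), against 20.2% of all 27025 genes with one. CCAAT was in 36 of the 45 (80%), against 41.1%. The E2F letters were in 13 of 37 S phase genes (35.1%), against 1.8% of all genes. Of the 16 astrocyte genes with a window, 1 held the CHR letters, 8 CCAAT and none an E2F match. These are matches of letters in a window and not measured sites.

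Other mitotic genes among the largest rises followed the pattern of Mki67, as the rule that picked them asks for groups without overlap. Cenpf, a kinetochore protein, rose from 58.7, 22.5 and 109 CPM in untreated C, D and E to 355, 353, 263, 156 and 152 CPM in DMSO A to E (log2 fold change 2.01 ± 0.51, adjusted p = 0.011). Cenpe, a kinetochore motor, rose by 2.01 ± 0.51, Kif20b, a kinesin of cytokinesis, by 2.13 ± 0.53, and Smc4, a condensin subunit, by 1.89 ± 0.44 on the log2 scale. Knl1, the kinetochore scaffold, rose by 1.82 ± 0.51. Among replication genes, Pole2 rose from 4.37, 2.40 and 6.58 CPM to 9.98, 13.8, 10.8, 7.32 and 11.9 CPM (log2 fold change 1.27 ± 0.31, adjusted p = 0.00911). Ccne2, the cyclin of the G1 to S step, rose by 1.67 ± 0.43, and E2f8, a repressor of the E2F family, by 0.86 ± 0.21. Foxm1 and Mybl2, transcription factors of the G2 and M phase programme, rose by 0.87 ± 0.23 and 1.04 ± 0.31, although the libraries of both groups overlapped for each. Cdk2, the partner kinase of cyclin E, rose by 0.68 ± 0.18.

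Of 14 G1 cyclins and their kinases, which act at the entry to the cycle, 4 rose and none fell. With DMSO C, D and E alone 1 rose, without untreated C, DMSO A or DMSO B 2 did, and without untreated D none. Ccnd1, cyclin D1, was not called at 555, 525 and 833 CPM untreated and 949, 1692, 749, 487 and 737 CPM with DMSO (log2 fold change 0.53 ± 0.38, adjusted p = 0.381). Of 19 cell cycle inhibitors and quiescence genes, 2 rose and 2 fell, counts that depended on the libraries. None rose and 2 fell with DMSO C, D and E alone, none rose or fell without untreated D, 3 rose and none fell without untreated E, none rose and 1 fell without DMSO A, and 4 rose without DMSO D. Without untreated C or DMSO B 1 rose, and without DMSO C or DMSO E 1 rose and 1 fell. Foxo3, a transcription factor active when growth factor signalling is low, fell from between 183 and 191 CPM to between 143 and 151 CPM (log2 fold change -0.34 ± 0.10, adjusted p = 0.0219). Cdkn2b, the p15 inhibitor, had a log2 fold change of -0.80 ± 0.25 and lost its call in 8 of 18 alternatives. Cdkn2c, the p18 inhibitor, had a log2 fold change of 0.51 ± 0.17 and lost its call in 12, RLE and upper-quartile scaling among them. The kinase inhibitor genes Cdkn1a and Cdkn1b, for p21 and p27, were not called, at 0.13 ± 0.24 and 0.07 ± 0.15.

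The cell cycle calls rested on few libraries. With DMSO C, D and E alone, 2 S phase and no G2 and M phase genes were called, and without untreated D none of either, though every fold change of both lists stayed positive in both comparisons. The median log2 fold change was then 0.64 and 0.64 for S phase and 0.65 and 0.54 for G2 and M phase. Without DMSO A the counts were 13 and 17, without DMSO B 16 and 31, without untreated C 4 and 22, and without DMSO C 24 and 32. The astrocyte list, described below, had its lower summed level in the same DMSO libraries, and its part in the rise of these genes was not tested.

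**Figure D3:**
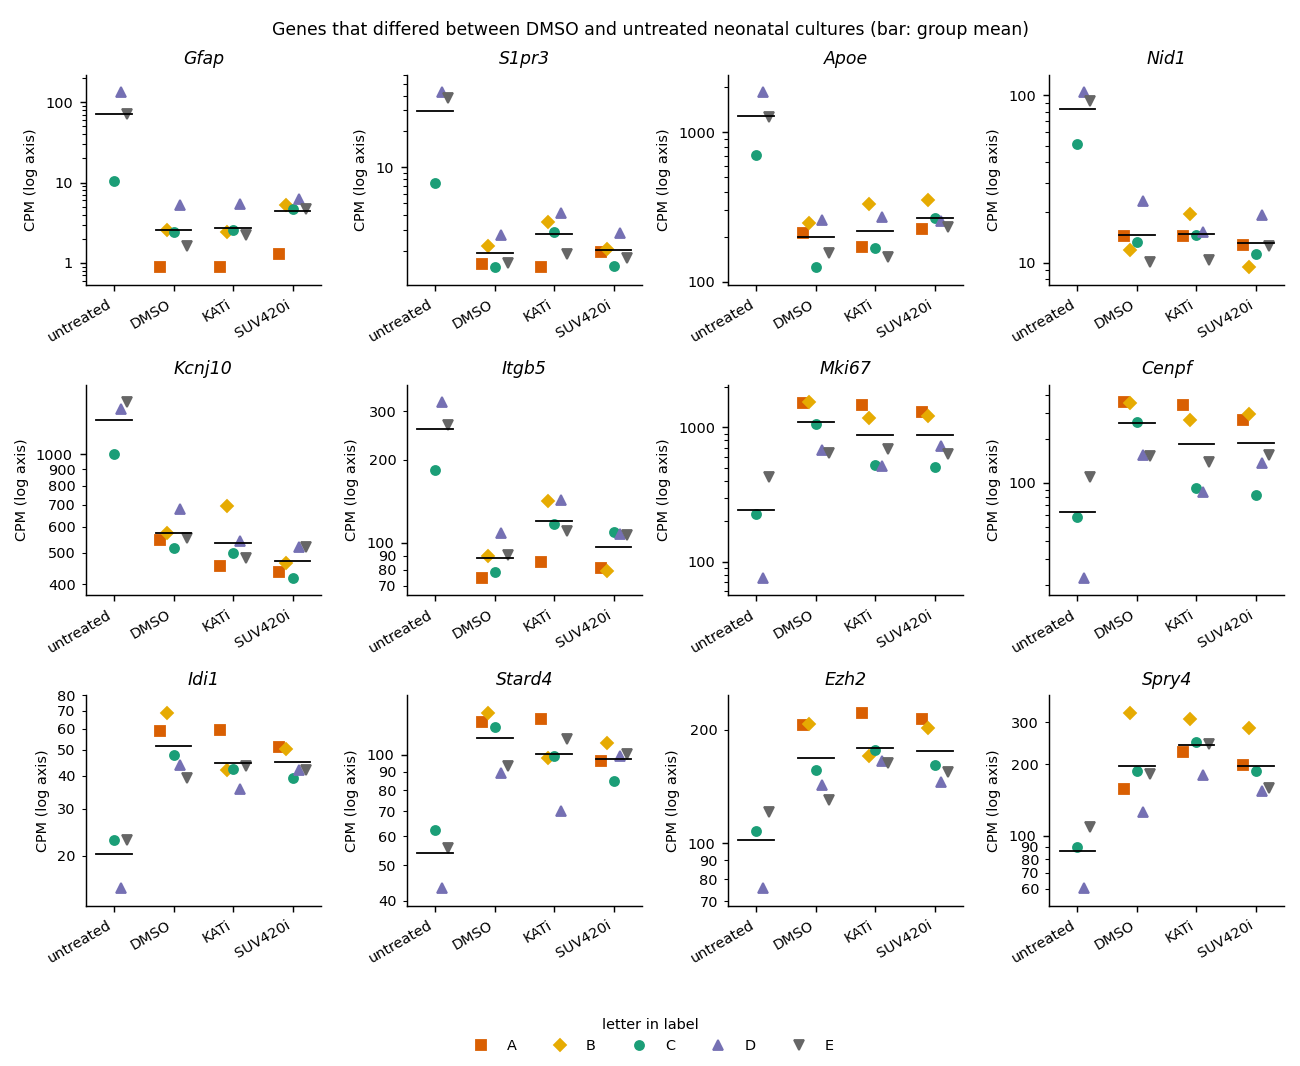
CPM on a log axis of 12 genes in each of the 18 neonatal libraries, by treatment, with the letter of the label as colour and symbol and the group mean as a bar. Gfap to Itgb5 lie higher, and Mki67 to Spry4 lower, in the 3 untreated libraries than in the 5 DMSO libraries, and the KATi and SUV420i libraries of Gfap to Itgb5 also lie below all 3 untreated libraries.

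Cholesterol synthesis was the list with the highest share of called members. Of its 26 genes, 23 rose and none fell, with a median log2 fold change of 0.68, and the libraries of both groups did not overlap for 25 of the 26, against 13.2% of all genes without overlap and higher. Idi1, the isomerase of the isoprene units (chr13:8885501-8892451), had 22.9, 15.1 and 22.8 CPM in untreated C, D and E. With DMSO it had 58.7, 68.8, 47.9, 43.8 and 39.3 CPM in A to E. Every DMSO library lay above every untreated one, with a log2 fold change of 1.35 ± 0.27 and an adjusted p of 0.00232. Stard4, a carrier of cholesterol between membranes, rose from 62.4, 43.3 and 55.7 CPM to 123, 130, 119, 89.3 and 93.4 CPM (log2 fold change 1.04 ± 0.23, adjusted p = 0.00438). Lbr, which is both a lamin receptor and a sterol reductase, rose by 0.83 ± 0.18. Fdps, which makes farnesyl diphosphate, rose from 4.51, 3.93 and 3.88 CPM to between 7.37 and 10.1 CPM, a low level that may share reads with its pseudogenes.

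The promoter window of Hmgcs1, a synthase of the pathway, is shown as the sole one among 18 cholesterol genes with a window that held the letters of a sterol response element (TCACNCCAC), bound by SREBP factors. It was chosen after its values were seen. Its RefSeq window is chr13:119690101-119690400 of GRCm38.p6 on the plus strand, and capitals mark that element and 4 CCAAT boxes on either strand.
Hmgcs1: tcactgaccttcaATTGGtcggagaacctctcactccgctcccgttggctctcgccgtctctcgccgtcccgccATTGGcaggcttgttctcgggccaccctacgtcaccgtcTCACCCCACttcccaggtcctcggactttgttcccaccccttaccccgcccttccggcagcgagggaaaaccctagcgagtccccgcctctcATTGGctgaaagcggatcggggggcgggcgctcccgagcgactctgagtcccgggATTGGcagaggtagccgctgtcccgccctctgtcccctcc
The element was in 1.44% of all genes with a window. CCAAT letters were in 17 of the 18 cholesterol genes (94.4%). Hmgcs1 itself stood at 524, 391 and 461 CPM untreated and at 846, 790, 709, 600 and 601 CPM with DMSO (log2 fold change 0.63 ± 0.20, adjusted p = 0.0375).

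Genes for the other lipids did not share that direction. Of 18 fatty acid synthesis genes, 4 rose and 3 fell. Fasn, fatty acid synthase, rose by 0.50 ± 0.12, Acly, which makes cytosolic acetyl-CoA, by 0.44 ± 0.11, and the elongase Elovl6 by 0.88 ± 0.19. Me1, the malic enzyme that supplies NADPH, fell by 0.69 ± 0.16, and Hacd3, a dehydratase of long-chain fatty acid elongation, fell by 0.40 ± 0.09. Of 13 genes of sterol export and lipoproteins, 3 fell and none rose. Abca1, the exporter of cholesterol to apolipoproteins, fell from 187, 304 and 367 CPM to 64.1, 95.5, 83.7, 90.0 and 75.4 CPM (log2 fold change -1.81 ± 0.44, adjusted p = 0.0087). Nr1h3, the oxysterol receptor LXR alpha, fell by 0.97 ± 0.22 at a level near 1 to 2 CPM. With DMSO C, D and E alone, 14 of the cholesterol synthesis genes were called, and without untreated D 3 were. The count was 12 without DMSO A or without untreated E and 14 without DMSO B. Of the fatty acid genes, 1 rose and 1 fell with DMSO C, D and E alone and none was called without untreated D. Of the export genes, 2 and 1 fell. Idi1 kept its call in 17 of 18 alternatives, all but the test against a 1.5-fold change, with a log2 fold change between 1.08 and 1.46.

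**Figure D4:**
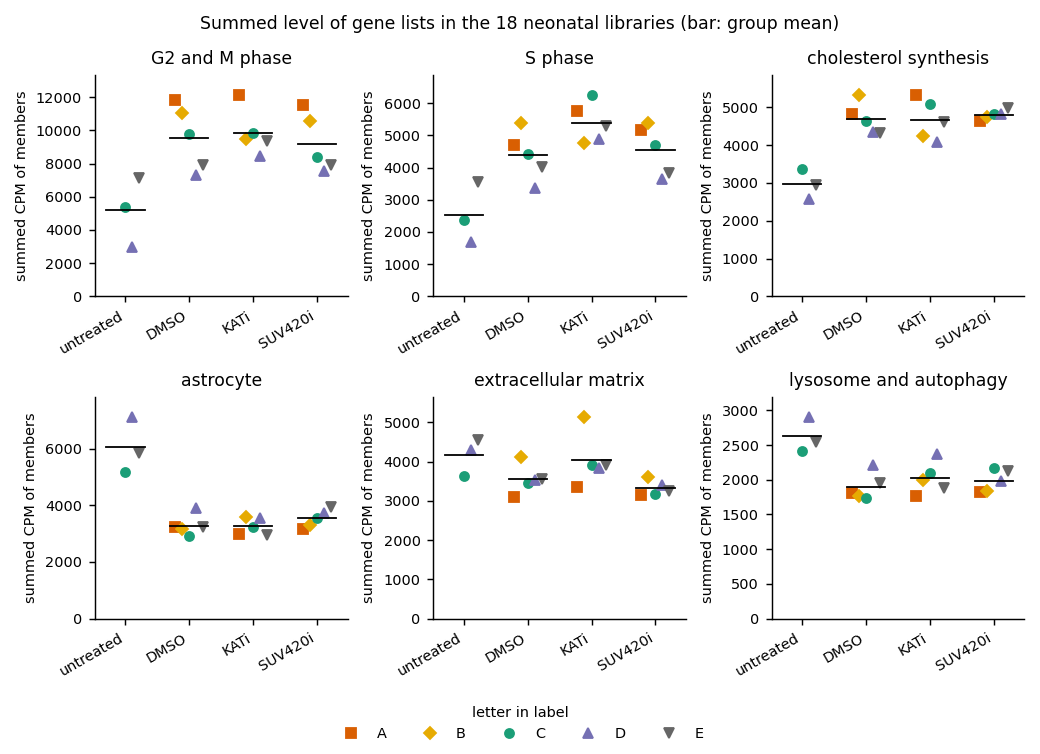
Summed CPM of the members of 6 gene lists in each of the 18 neonatal libraries, by treatment, on linear axes from 0, with the letter of the label as colour and symbol and the group mean as a bar. Astrocyte and lysosome genes are highest in the 3 untreated libraries, and cholesterol synthesis genes lowest there.

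Astrocyte genes were lower with DMSO. Of 20 markers, 14 fell and none rose, with a median log2 fold change of -1.08, and all 20 fold changes were negative. Their summed level was 5164 to 7127 CPM in the untreated and 2917 to 3908 CPM in the DMSO libraries. Gfap, the intermediate filament of astrocytes (chr11:102887336-102900912), stood at 10.3, 134 and 70.8 CPM in untreated C, D and E and at 0.893, 2.59, 2.40, 5.23 and 1.61 CPM in DMSO A to E. It was low in every DMSO library, and untreated C was the lowest of the untreated. The log2 fold change was -4.79 ± 0.87, with an adjusted p of 0.000781. Aqp4, the water channel of astrocyte end-feet, fell from 75.2, 123 and 110 CPM to 21.5, 13.2, 30.3, 39.3 and 19.7 CPM (log2 fold change -2.05 ± 0.55, adjusted p = 0.0152). Atp1b2, a glial subunit of the sodium pump, fell by 1.12 ± 0.22 and Ppp1r3c, a glycogen-targeting subunit of a phosphatase, by 1.57 ± 0.29. Gjb6, connexin 30, fell from below 1 CPM to between 0.031 and 0.155 CPM. Slc1a3, the glutamate transporter GLAST, was not called at 1430, 1640 and 1448 CPM against 964, 957, 915, 1218 and 930 CPM (log2 fold change -0.60 ± 0.22, adjusted p = 0.0674).

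Of 23 genes tested that astrocytes raise on injury, 10 fell, none rose and 13 were not called, with a median of -1.08 and 4 positive fold changes. Their summed level overlapped between the groups, at 2563, 3742 and 3840 CPM in untreated C, D and E and 2618, 2900, 1945, 1866 and 1939 CPM in DMSO A to E. Most of that sum was 1 gene, Vim, which encodes vimentin. It stood at 2318, 3404 and 3444 CPM untreated and at 2541, 2783, 1817, 1705 and 1847 CPM with DMSO. S1pr3, a sphingosine-1-phosphate receptor (chr13:51408639-51422797), had 7.44, 42.8 and 38.0 CPM in untreated C, D and E and 1.55, 2.20, 1.45, 2.72 and 1.58 CPM in DMSO A to E. The groups did not overlap, and the log2 fold change of -3.94 ± 0.40 had an adjusted p of 1.26e-06. Gbp2, an interferon-inducible GTPase, fell by 2.72 ± 0.42 and Tm4sf1, a tetraspanin-like membrane protein, by 1.97 ± 0.33. Vim itself had overlapping groups and was not called (log2 fold change -0.51 ± 0.20, adjusted p = 0.087). Among the largest falls of all genes were also Apoe and Clu, lipid-carrying apolipoproteins that glia secrete. Apoe fell from 705, 1864 and 1268 CPM to 210, 249, 125, 260 and 155 CPM (log2 fold change -2.68 ± 0.36, adjusted p = 3.81e-05), and Clu fell by 2.61 ± 0.50. C4b, a complement component, fell by 3.66 ± 0.63, as 1 of 5 lower and no higher genes among 15 of complement and antigen presentation.

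With DMSO C, D and E alone, 13 of the astrocyte, 10 of the reactive astrocyte and 5 of the complement genes were called, and without untreated D 5 and 6, with 3 of the complement genes. Without untreated E, 6 of the reactive astrocyte genes were called. Gfap, S1pr3 and Apoe kept their calls in all 18 alternatives.

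Of 35 extracellular matrix genes, 10 fell, 2 rose and 23 were not called, with a median of -0.53. Nid1, the basement membrane linker nidogen, stood at 51.3, 105 and 92.8 CPM in untreated C, D and E and at 14.5, 11.9, 13.3, 23.3 and 10.2 CPM in DMSO A to E. Each DMSO library was lower than each untreated one, with a log2 fold change of -2.50 ± 0.26 and an adjusted p of 1.26e-06. Lama1, a laminin chain, fell by 1.45 ± 0.20 and Fn1, fibronectin, by 0.91 ± 0.16. Sparc, a collagen-binding glycoprotein, fell from 739, 1614 and 1739 CPM to 256, 645, 192, 352 and 259 CPM. Col4a6, a collagen IV chain, fell by 3.13 ± 0.54, and Timp2, an inhibitor of metalloproteinases, by 1.01 ± 0.19. Tnc, tenascin C, was not called although its groups did not overlap, at 435, 138 and 168 CPM untreated and between 519 and 919 CPM with DMSO (log2 fold change 1.66 ± 0.63, adjusted p = 0.0811).

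Of 15 integrins, 3 fell, 1 rose and 11 were not called. Itgb5, a vitronectin receptor subunit, fell from 183, 323 and 268 CPM to 74.8, 89.8, 78.3, 108 and 90.2 CPM (log2 fold change -1.55 ± 0.18, adjusted p = 1.12e-05), and Itga7, a laminin receptor subunit, fell from between 18.8 and 30.5 CPM to between 5.34 and 11.6 CPM. Of 21 targets of YAP and SRF, which answer to stretch and to actin, 6 fell and 1 rose. Myl9, a myosin light chain, fell by 1.91 ± 0.27, Axl, a receptor kinase, by 1.36 ± 0.24 and Flna, filamin, by 0.48 ± 0.14. Acta2, smooth muscle actin, fell from 18.4, 24.9 and 29.9 CPM to between 3.68 and 5.05 CPM (log2 fold change -2.52 ± 0.53, adjusted p = 0.00296). Of 6 mural cell markers 3 were lower, among them Acta2, which is also on the YAP and SRF list. Their summed level was 192 to 235 CPM untreated and 68.8 to 111 CPM with DMSO. Most of that sum was 1 gene, Notch3, at 157 to 202 CPM untreated and 64.2 to 103 CPM with DMSO. The part of mural cells in the falls was not tested. In the set of DMSO C, D and E, 8 matrix genes, 4 YAP and SRF targets, 2 integrins and 4 mural markers were lower. For matrix genes and YAP and SRF targets the counts were 5 and 3 without untreated D or without untreated E. Without untreated D 1 integrin was lower.

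Of 20 lysosome and autophagy genes, 8 fell and none rose, with a median of -0.34 and 19 negative fold changes. Ctsd, the protease cathepsin D, fell from 180, 262 and 260 CPM to 115, 155, 104, 129 and 119 CPM (log2 fold change -0.91 ± 0.17, adjusted p = 0.000841). Hexa, a ganglioside-degrading hexosaminidase, fell by 0.64 ± 0.13, Ctsl, cathepsin L, by 0.76 ± 0.16 and Lamp1, a lysosomal membrane protein, by 0.47 ± 0.12. Of 20 NRF2 targets, 6 fell and none rose, among them the glutathione transferases Gstm1 and Gsta4. Gstm1 fell from 197, 375 and 321 CPM to 71.4, 99.9, 61.9, 122 and 73.0 CPM, and Gsta4 fell by 1.56 ± 0.28. Of 18 glycolysis genes, 3 fell and 1 rose. Pfkm, phosphofructokinase, fell by 0.55 ± 0.12 and Ldhb, a lactate dehydrogenase subunit, by 0.60 ± 0.13, while Hk2, hexokinase 2, rose from about 12 CPM in each untreated library to between 16.0 and 24.0 CPM. Slc2a1, the glucose transporter GLUT1, fell by 0.83 ± 0.18. The counts of lower genes with DMSO C, D and E alone were 6 lysosomal, 4 NRF2 and 4 glycolysis genes. Without untreated D, 1 lysosomal gene, 2 NRF2 targets and none of the glycolysis genes were called, and without untreated E or DMSO C 3 NRF2 targets. Without DMSO D, 5 glycolysis genes were lower.

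Of 20 OPC genes, 1 rose and 1 fell, shares near the 6.36% and 6.37% of all genes, and the counts were the same when only DMSO C, D and E entered. Their median log2 fold change was 0.11. Pdgfra, the PDGF receptor that defines OPCs, was not called at 1242, 823 and 1039 CPM untreated and 1219, 613, 1757, 1592 and 1622 CPM with DMSO, where DMSO B was the lowest of all 8. Cspg4, the NG2 proteoglycan, lay between 470 and 671 CPM untreated and between 565 and 812 CPM with DMSO and was not called either. Ncan, the proteoglycan neurocan, fell from 3186, 3259 and 2676 CPM to 1842, 1618, 1909, 2280 and 2123 CPM (log2 fold change -0.64 ± 0.14, adjusted p = 0.00421). Susd5, a membrane protein, rose at a level near 1 CPM.

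Of 13 genes of committed oligodendrocytes 3 fell. Of 17 of myelinating oligodendrocytes 1 did, a share near the 6.37% of all genes that were lower. Their medians were -0.51, with 10 of 13 negative, and -0.45, with 14 of 17 negative. The groups overlapped for the 3 called genes named here. Enpp6, an enzyme of newly formed oligodendrocytes, stood at 2.76, 13.8 and 6.68 CPM untreated and at 0.233, 0.362, 0.326, 3.88 and 0.527 CPM with DMSO. Nfasc, an adhesion protein of paranodes, had a log2 fold change of -0.55 ± 0.17 and Mag, a myelin-associated glycoprotein, of -2.97 ± 0.92. Mag was low, at 0.239, 2.52 and 4.04 CPM untreated and between 0.078 and 0.534 CPM with DMSO. It lost its call in 8 of 18 alternatives, and Enpp6 and Nfasc each lost theirs in 9. Mbp, a main protein of compact myelin, was not called, at -0.84 ± 1.11, and was lowest in DMSO A and B. Restricted to DMSO C, D and E, 1 committed gene and no myelin gene was called. Without untreated D, untreated E, DMSO A or DMSO C none of the committed genes was, without DMSO B 1 was, and without DMSO D 6 were.

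Signalling genes moved in few members of each list. Of 25 immediate early genes, which growth factors and calcium switch on within minutes, 6 rose and 1 fell. Egr1, a zinc finger factor, stood at 19.8, 13.5 and 27.0 CPM untreated and at 36.7, 369, 54.9, 39.9 and 72.9 CPM with DMSO, with DMSO B far above the others (log2 fold change 2.51 ± 0.66, adjusted p = 0.014). Its call was lost without DMSO B, at 1.36 and an adjusted p of 0.0725, with DMSO C, D and E alone, at 1.45 and 0.184, and without untreated D, at 2.32 and 0.124. It was also lost when the 8 libraries were fitted alone, at an adjusted p of 0.063. Arc, a synaptic capsid-like protein, stood at 1.23, 0.961 and 1.34 CPM and at 4.43, 29.1, 4.06, 3.34 and 4.46 CPM. Fos was not called. Without DMSO B, or with DMSO C, D and E alone, 1 immediate early gene was higher, without untreated D none, without untreated E 2 and without untreated C 3. Of 16 genes of feedback on the ERK kinase 2 rose, both inhibitors of receptor signalling. Spry4 rose from 90.0, 60.4 and 109 CPM to 158, 329, 187, 126 and 181 CPM (log2 fold change 1.18 ± 0.32, adjusted p = 0.0177), and Spry1 by 0.94 ± 0.28. Both were called when only DMSO C, D and E entered. Neither was without untreated D or without DMSO B, and 1 was without untreated C, untreated E or DMSO A.

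A list of PDGF and FGF receptors also held other growth factor genes, such as Egfr. Of its 20 genes tested 2 fell, a share near the 6.37% of all genes that were lower. Fgfr2 fell from 99.2, 127 and 122 CPM to 26.5, 35.5, 45.4, 69.5 and 48.4 CPM (log2 fold change -1.36 ± 0.25, adjusted p = 0.000903), and Fgfr1 by 0.33 ± 0.10. Among 22 Wnt genes 4 fell and 2 rose, with the ligands Wnt7b and Wnt7a down by 1.20 ± 0.25 and 0.60 ± 0.14 in log2 terms. Among 18 Notch genes 2 fell and 1 rose, also near the shares over all genes, and both that fell were receptors, Notch3, from 166, 202 and 157 CPM to between 64.2 and 103 CPM, and Notch2, which fell by 0.84 ± 0.24. Hes5, a Notch target of progenitors, was not called, at 3.35 CPM in DMSO B and between 20.3 and 40.4 CPM in the other DMSO libraries. Among 19 BMP genes 3 fell and 1 rose. Id4, a helix-loop-helix inhibitor that BMP raises, fell from 42.6, 84.8 and 54.0 CPM to 12.3, 7.90, 15.4, 24.9 and 18.8 CPM, and the receptor Bmpr1b fell by 1.01 ± 0.33. Of 28 channels and transmitter receptors of OPCs 3 fell, among them Kcnj10, the potassium channel Kir4.1, by 1.15 ± 0.14 with an adjusted p of 1.39e-05. Gria1 and Gabrb1, subunits of AMPA and GABA-A receptors, fell by 2.17 ± 0.57 and 2.19 ± 0.56. The lower genes with DMSO C, D and E alone were 1 each of the receptor, Notch and BMP lists, 4 of the Wnt list and 3 of the channel list. Without untreated E, 1 each of the receptor and Notch lists was lower, and without DMSO D 4 of the receptor list. Without untreated D, 1 gene each of the receptor, Notch, BMP and channel lists and none of the Wnt list was lower. Kcnj10 kept its call in all 18 alternatives.

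Genes of ribosome assembly and of chromatin rose in part. Of 22 ribosome biogenesis genes 9 rose and none fell, and all 22 fold changes were positive. Npm1, nucleophosmin, rose from 42.9, 44.3 and 49.5 CPM to between 65.9 and 101 CPM (log2 fold change 0.92 ± 0.18, adjusted p = 0.00155). Gnl3, nucleostemin, rose by 0.75 ± 0.15, Dkc1, dyskerin, by 0.66 ± 0.17 and Nop56, a core protein of small nucleolar particles, by 0.62 ± 0.16. Of 40 chromatin enzymes 11 rose and 1 fell. Ezh2 and Eed, of the H3K27 methyltransferase complex PRC2, rose by 0.73 ± 0.18 and 0.49 ± 0.13. Suv39h1, Suv39h2 and Setdb1, H3K9 methyltransferases, rose by 0.53 ± 0.13, 0.90 ± 0.23 and 0.31 ± 0.08. Of 19 histones and histone chaperones 10 rose and 2 fell, with Nasp, a carrier of histones H3 and H4, up by 1.05 ± 0.29 in log2 terms and Hist1h1c, a linker histone, down from between 106 and 121 CPM to between 59.8 and 69.9 CPM.

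Restricted to DMSO C, D and E, 7 ribosome biogenesis genes, 1 chromatin enzyme and 1 histone or chaperone were higher, and without untreated D 2, 0 and 2. Without DMSO A the chromatin enzymes numbered 5 and the histones and chaperones 2, and without untreated C the 3 counts were 5, 6 and 4. Without DMSO B they were 6, 7 and 6, and without DMSO C the histones and chaperones were 6.

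**Figure D5:**
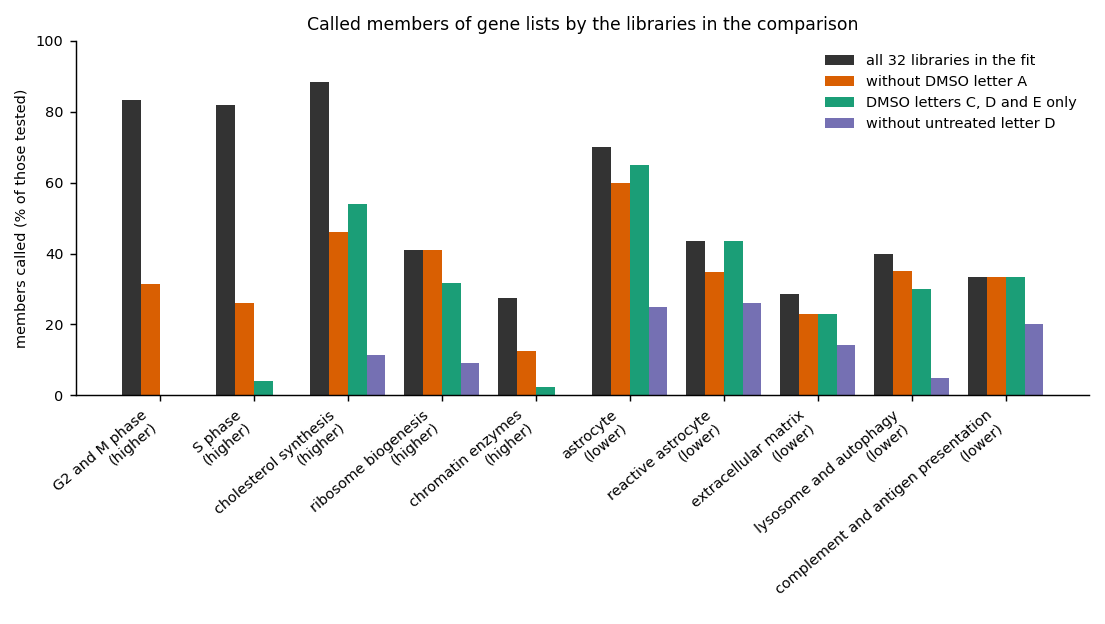
Members called, as a percent of those tested, in 10 gene lists with all libraries (dark), without DMSO A, with DMSO C, D and E alone and without untreated D. The bars of the cell cycle lists drop to at or near 0 without untreated D and with DMSO C, D and E alone, while those of the astrocyte, complement and matrix lists drop less.

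Markers of other cell types were present at different levels. Of 18 microglia genes 6 could be tested and none was called, and C1qa, C1qb and C1qc had no count in any of the 8 libraries. The summed microglia level was 18.7 to 19.4 CPM untreated and 15.8 to 20.8 CPM with DMSO. Of 15 neuron genes tested 1 fell, a share near the 6.37% of all genes that were lower. None did with DMSO C, D and E alone or without any 1 of untreated C, D or E or DMSO A, C or E. The neuron list summed to 778 to 1080 CPM untreated and 1030 to 1273 CPM with DMSO. Rbfox3, the neuronal nuclear antigen, lay between 1.08 and 4.43 CPM in all 8 libraries. Pecam1, of endothelium, stayed below 1 CPM and Col1a1, of fibroblasts, below 2 CPM. Of 7 endothelial genes tested 1 fell, with a median of -0.56 and 3 positive fold changes. None was called with DMSO C, D and E alone or without any 1 of untreated D or E or DMSO A, C, D or E. The endothelial list summed to 23.5 to 30.3 CPM untreated and 13.5 to 22.4 CPM with DMSO. Of 8 fibroblast genes tested 1 rose and 1 fell, where 6.36% of all genes were higher and 6.37% lower. With DMSO C, D and E alone none rose and 1 fell. Without untreated D none rose or fell, and without untreated E 1 rose and none fell. Of 5 ependymal genes 3 fell, among them Foxj1, the factor of motile cilia, from 78.1, 120 and 112 CPM to 31.4, 40.5, 37.4, 44.6 and 51.0 CPM (log2 fold change -1.33 ± 0.27, adjusted p = 0.00231). The ependymal list summed to 86.2 to 131 CPM untreated and 34.1 to 53.6 CPM with DMSO, and Foxj1 made up most of that sum. With DMSO C, D and E alone, or without untreated D, 1 ependymal gene was called.

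In adult cells the same contrast was made with fewer libraries and gave fewer calls. Between 4 adult DMSO and 2 adult untreated libraries, from mice at day 60, 62 genes were called (0.306%), of which 10 moved in the neonatal direction and 10 in the opposite one among the genes called at both ages. The difference between the neonatal and the adult contrast was called for 2204 genes (10.9%), 1191 of them (5.88%) higher and 1013 (5%) lower in the neonatal contrast. Apoe stood at 461 and 539 CPM in adult untreated and 679 to 1533 CPM in adult DMSO libraries, and its difference between ages was -3.62 ± 0.60 (adjusted p = 0.00171). Mki67 had 624 and 883 CPM in adult untreated and 373 to 1203 CPM in adult DMSO libraries, and a difference between ages of 2.17 ± 0.69 (adjusted p = 0.0408). The count of 2204 fell to 122 without adult untreated 2, to 490 without adult untreated 1, to 796 without neonatal untreated D and to 1127 without adult DMSO 3.

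The neonatal inhibitor cultures, which were also kept for 48 h, lay near the DMSO cultures for S1pr3 and Nid1, but not for every mitotic gene. S1pr3 ranged from 1.46 to 4.16 CPM with KATi and from 1.48 to 2.83 CPM with SUV420i, below the lowest untreated library at 7.44 CPM. Nid1 ranged from 10.4 to 19.4 CPM and from 9.42 to 19.4 CPM. Mki67 ranged from 517 to 1475 CPM and from 511 to 1295 CPM, above the highest untreated library at 429 CPM. Cenpf did not stay above, with 91.6 and 86.6 CPM in KATi C and D and 82.7 CPM in SUV420i C. Untreated E held 109 CPM of it. Kif20b and Knl1 also had inhibitor libraries within the untreated range. These levels stand beside the same 3 untreated libraries and give no independent test of the contrast.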

How the data were processed

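The authors deposited raw read counts, whole numbers for 56980 Ensembl identifiers in 32 libraries. Per the submitters' processing notes, CASAVA 1.8.2, Subread, featureCounts, DESeq2 and mm10 were used, with no role stated. Annotation release and strand setting: not given in the sources used here. Reads of genes that overlap on opposite strands therefore cannot be told apart. GENCODE symbols (GRCm38) matched 52125 identifiers, and 4855 without one held 2.37% of counts.

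Genes passed filterByExpr (minimum count 10), leaving 20259 genes. All 32 libraries entered one edgeR 4.0.16 quasi-likelihood fit in R 4.3.3, with 8 groups and trimmed mean of M-values scaling (factors 0.951 to 1.03). The p-values were adjusted by Benjamini and Hochberg's (Benjamini-Hochberg) method over all genes tested, with calls under 0.05. Errors on log2 fold changes are SE. Alternatives used DESeq2 1.42.0, edgeR's glmTreat, other scalings and filters, other sets of libraries and a replicate block. On simulated counts with 200 changed genes, the neonatal contrast recovered 14.9%, 68.7% and 98.5% of 1.5-fold, 2-fold and 4-fold changes, with 6 false calls. The simulated counts were drawn independently for each gene and library, without effects shared within a library or a letter. They therefore do not give the error rate in these data. No pair of libraries within the neonatal untreated or the neonatal DMSO group agreed within sampling noise, and other pairs were not checked.

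The members, the gene lists and the naming rule were chosen with earlier results of these data known. For each direction the rule took the 12 genes that changed most, if called, without overlapping libraries and with a mean log2 CPM of 2 or more, leaving out predicted, mitochondrial and ribosomal protein genes. It added up to 5 called members and 2 others of each list, and a set of lineage, cell type and pathway genes. Not every gene that it names is described. Motifs were searched as letters on both strands of RefSeq windows.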

Additional observations from a re-analysis of the deposited data

Results flagged for a closer look

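Among 134 genes tested for a DMSO library far from the other 4, 13 had one. Chance alone gives about 1 in 20 only for independent, normally distributed values. CPM of genes that move together are not such values, so the count cannot be set against that rate. Library B was the high one for 9 of the 13. It held 29.1 CPM of Arc against 3.34 to 4.46 CPM in the others, 369 CPM of Egr1 against 36.7 to 72.9 CPM, 6.58 CPM of Egr3 against 0.595 to 1.09 CPM and 32.3 CPM of Fos against 7.4 to 14.3 CPM. It also held 67.2 CPM of Clu, 2213 CPM of Ccnd2, 15.2 CPM of Cdkn2b, 10.7 CPM of Gabrb1 and 71.2 CPM of Mthfd2. Library D was high for Enpp6 at 3.88 CPM, Slc1a3 at 1218 CPM and Gpx1 at 8.41 CPM. Library A was low for Ier3, at 8.7 CPM against 12.9 to 14.1 CPM.

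The contrast of DMSO and untreated cultures differed between neonatal and adult cells for 2204 genes by the interaction term of edgeR's quasi-likelihood fit. That is 10.9% of all genes. It held for 16 of 41 genes that are among the largest neonatal changes or were always named, a share that the choice by the same neonatal contrast raises. The log2 difference, neonatal minus adult, was positive for Arc at 4.43, Egr1 at 4.23, Pou3f1 at 3.11, Nptx2 at 2.54, Ccbe1 at 2.38 and Mki67 at 2.17. It was negative for C4b at -5.02, Gfap at -4.60, S1pr3 at -4.35, Aqp4 at -3.66, Apoe at -3.62, Crb2 at -3.25, Clu at -2.56, Plscr2 at -2.51, Parp3 at -2.29 and Nid1 at -1.45. The adult side rests on 2 untreated libraries.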

How the results depend on the processing

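Against 2579 genes called, 4361 were called with the 18 neonatal libraries and a replicate block on the letter, 1211 with DMSO C, D and E alone, 192 against a 1.5-fold change and 329 to 2873 when each library was left out in turn. Letters were not used to pair untreated with DMSO libraries, because same-letter deviations from the group means correlated at 0.136 for C, 0.530 for D and -0.267 for E, not over 0.1 in each. The DMSO mean includes letters A and B, which no untreated library has, so these correlations cannot show that the letters are unpaired. They also do not cover the other treatments, across which letters A and B were alike for Sox10 and Gpr17. With the 8 libraries alone and a replicate block, 3066 genes were called. The difference between ages gave 122 to 2922 genes when each library was left out. Fewer samples entered where libraries were left out, and otherwise the cause was not tested. Upper-quartile, RLE, unfiltered, DESeq2, 8-library and 18-library counts stayed within 1.5 times of 2579, from 1870 to 3132. At 24.7 to 38.0 M counts a library, 1 CPM is 24.7 to 38.0 counts, so genes below 1 CPM such as Gjb6 rest on few reads. None of the 114 called genes drawn from the naming rule changed sign in any alternative. They were picked by their calls in these same libraries, so this gives no independent check.

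Uncalled genes changed sign around 0. With the replicate block, Sox10 went from -0.18 to 0.52 (18 libraries, adjusted p = 0.00179) and 0.43 (8 libraries, adjusted p = 0.0295), and Cdkn1a from 0.13 to -0.0015 and -0.12. Limited to DMSO C, D and E they were 0.44 and -0.12, and with the 18 neonatal libraries Olig1 was 0.017. Leaving out single libraries gave ranges from -0.50 to 0.12 for Sox10, -0.082 to 0.032 for Olig1, -0.48 to 0.084 for Hes5, -0.49 to 0.099 for Rbfox3, -0.043 to 0.38 for Cdkn1a and -0.012 to 0.14 for Cdkn1b.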
